A study of Mus musculus with 12 samples.

Results

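T cell receptor alpha variable segments are the gene pieces from which the variable end of every alpha chain is built. They were chosen as every gene symbol that starts with Trav, which gave 128 of the 35492 symbols in the deposited tables. Mouse CD4+ T cells had been sequenced in 12 libraries, 3 in each of 4 groups, from C57BL/6J mice aged 7 weeks. OT-II Tfh libraries came from naive spleen and lymph node T cells of OT-II mice, whose T cells bear a transgenic receptor specific for ovalbumin, after culture towards follicular helper T (Tfh) cells. The protocol gives a single recipe for Tfh cultures, OT-II and WT alike: 50 ng/ml IL-6 and 50 ng/ml IL-21 with antibodies at 10 µg/ml against IL-4, IFNγ and TGFβ. Tumour Tfh libraries came from CD4+ CXCR5+ PD1+ cells isolated from tumours of MC38, a colon carcinoma line of the mouse. WT Tfh libraries came from naive wild-type spleen and lymph node cells cultured towards Tfh cells. WT Th1 libraries came from the same kind of naive cells given 10 ng/ml IL-12 with 10 µg/ml of the IL-4 antibody. All cultures were on plates coated with CD3 and CD28 antibodies, a stimulus that does not depend on what a receptor recognises. Titles give 48 h of culture for the OT-II cells and 24 h for both WT cultures, whereas the protocol gives 48 h, so time and genotype cannot be told apart in the OT-II comparison. The labels do not say whether the OT-II mice could still rearrange their own receptor genes.

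In the thymus the recombinase made of Rag1 and Rag2 joins a Trav segment to a Traj segment, and splicing adds the constant exons of Trac. The segments of a mature T cell are thus fixed, and the mix of Trav transcripts in a polyclonal population is a record of which clones it holds and how much receptor RNA each makes. In bulk libraries, fewer cells with a segment and less RNA per cell cannot be told apart. The alpha locus of this strain holds duplicated blocks, and the letters d and n in a name mark the copies. The delta chain locus lies inside the alpha locus, and segments with dv in the name also serve delta chains.

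All 128 segments matched GENCODE M21 and lay on the plus strand of chr14:52427928-53977678 (GRCm38, the build also called mm10), upstream of 60 Traj segments at chr14:54155005-54218842 and of Trac at chr14:54220521-54224206. GENCODE lists 108 as variable genes and 20 as pseudogenes. They form 23 families by number, of which Trav14 has 9 members, and 57 copy sets, a copy set being the segments whose names differ only in the letter d or n or in a dv suffix. There were 55 segments with no letter, 39 with d and 34 with n. No segment was listed at 0 in every library, and 53 were above 0 in all 12. With a mean of at least 1 TPM (an abundance corrected for transcript length and scaled to the same total in every library) in a group, 116 segments passed the filter on low values and 12 did not.

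The copies limit what a single value means, because the quantification shares reads between transcripts that match equally well. In 17 pairs of segments the longest transcripts were identical, and those 17 pairs held equal values in every library, so the 128 segments carried 111 separate series of values. In 4 more pairs the shorter transcript lay whole inside the longer. Trav7-2 and Trav7d-2 are such a pair, and the ends of their transcripts are shown because their values switch between libraries. The GENCODE M21 transcripts are given 5′ to 3′, at chr14:52684412-52684472 for Trav7d-2 and chr14:53391083-53391142 for Trav7-2, both on the plus strand of GRCm38, and the capital marks the only base by which they differ.
Trav7d-2: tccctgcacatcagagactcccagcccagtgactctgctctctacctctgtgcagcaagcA
Trav7-2: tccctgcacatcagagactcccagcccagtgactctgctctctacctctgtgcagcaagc
Trav7d-2 took 5.29% of summed Trav TPM in tumour Tfh replicate 2 and 4.90% in WT Th1 replicate 2, where Trav7-2 was listed at 0. Trav7-2 took 2.20% to 4.78% in the other 7 libraries from the tumour, WT Tfh and WT Th1 groups, where Trav7d-2 was at most 0.0313%. The sum of the pair, in contrast, was above 0 in every library. For that reason each comparison by share below is given for segments and for copy sets. Comparisons by level are given for segments only, so their calls can depend on how reads were split between copies.

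The Trav14 family, which the older nomenclature calls Vα2 and which the OT-II transgene uses, has 9 segments of nearly the same sequence. The last 280 bases of 4 of their transcripts are shown, because they separate the segment that filled the OT-II libraries from its relatives. These are GENCODE M21 transcripts on the plus strand of GRCm38, at chr14:52855887-52856166 for Trav14d-1, chr14:52948890-52949169 for Trav14d-2, chr14:53370296-53370575 for Trav14n-3 and chr14:53554279-53554558 for Trav14-1. Capitals mark bases that differ from Trav14d-1, and in Trav14d-1 itself the 33 positions at which any other family member differs.
Trav14d-1: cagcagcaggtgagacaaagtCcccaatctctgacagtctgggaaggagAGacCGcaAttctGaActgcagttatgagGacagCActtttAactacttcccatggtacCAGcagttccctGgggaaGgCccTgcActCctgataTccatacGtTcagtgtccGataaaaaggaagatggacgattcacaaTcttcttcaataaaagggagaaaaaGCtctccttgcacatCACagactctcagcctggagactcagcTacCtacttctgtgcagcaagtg
Trav14d-2: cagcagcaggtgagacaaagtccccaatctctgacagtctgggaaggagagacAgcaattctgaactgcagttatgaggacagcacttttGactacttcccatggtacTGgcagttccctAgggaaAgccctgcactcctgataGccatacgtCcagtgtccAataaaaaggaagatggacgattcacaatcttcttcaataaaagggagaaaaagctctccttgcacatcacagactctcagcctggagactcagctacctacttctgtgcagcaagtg
Trav14n-3: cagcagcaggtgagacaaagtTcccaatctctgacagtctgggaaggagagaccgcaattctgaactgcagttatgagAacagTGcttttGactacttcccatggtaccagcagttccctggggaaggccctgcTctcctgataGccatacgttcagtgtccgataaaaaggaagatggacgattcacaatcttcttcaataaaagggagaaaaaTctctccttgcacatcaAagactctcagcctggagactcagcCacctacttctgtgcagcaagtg
Trav14-1: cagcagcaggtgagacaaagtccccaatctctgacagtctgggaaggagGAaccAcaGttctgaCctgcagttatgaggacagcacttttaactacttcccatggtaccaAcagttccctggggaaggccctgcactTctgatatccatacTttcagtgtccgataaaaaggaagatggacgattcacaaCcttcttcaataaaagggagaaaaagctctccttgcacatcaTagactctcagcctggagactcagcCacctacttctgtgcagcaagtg
Trav14n-1, at chr14:53166899-53167178, has the same 280 bases as Trav14d-1, so both stand for the same sequence in these data. The remaining family members differ from it at 9 to 11 of the 280 positions, an identity of 96.1% to 96.8%.

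The summed Trav level was far higher in the OT-II libraries than in the other 3 groups. It was 2626, 2803 and 2874 TPM in OT-II Tfh, 480, 1025 and 632 TPM in tumour Tfh, 562, 462 and 510 TPM in WT Tfh, and 243, 246 and 389 TPM in WT Th1 libraries. Trac, the constant gene of the same transcripts, was also far higher in OT-II Tfh libraries. It had 1915, 2068 and 2032 TPM in OT-II Tfh, 449, 854 and 473 TPM in tumour Tfh, 366, 249 and 335 TPM in WT Tfh, and 182, 217 and 356 TPM in WT Th1 libraries. The ratio of summed Trav TPM to Trac TPM ran from 1.07 to 1.85 over the 12 libraries. It was highest in WT Tfh libraries, at 1.54, 1.85 and 1.52, and reached 1.41 at most in the other groups. Replicate 2 of the tumour group had the highest sum outside OT-II and also the highest level of the macrophage markers Lyz2, Cd68, Adgre1, C1qa and C1qb, 469 TPM summed against 48.9 TPM in the lowest tumour library. Those 5 markers summed to 6.84 to 9.48 TPM in WT Tfh libraries. None of the 7 T cell markers checked (Cd3e, Cd3d, Cd3g, Trac, Cd4, Thy1 and Lck) was at 0 in all libraries, and they summed to 509 TPM or more in every library.

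**Figure D1:**
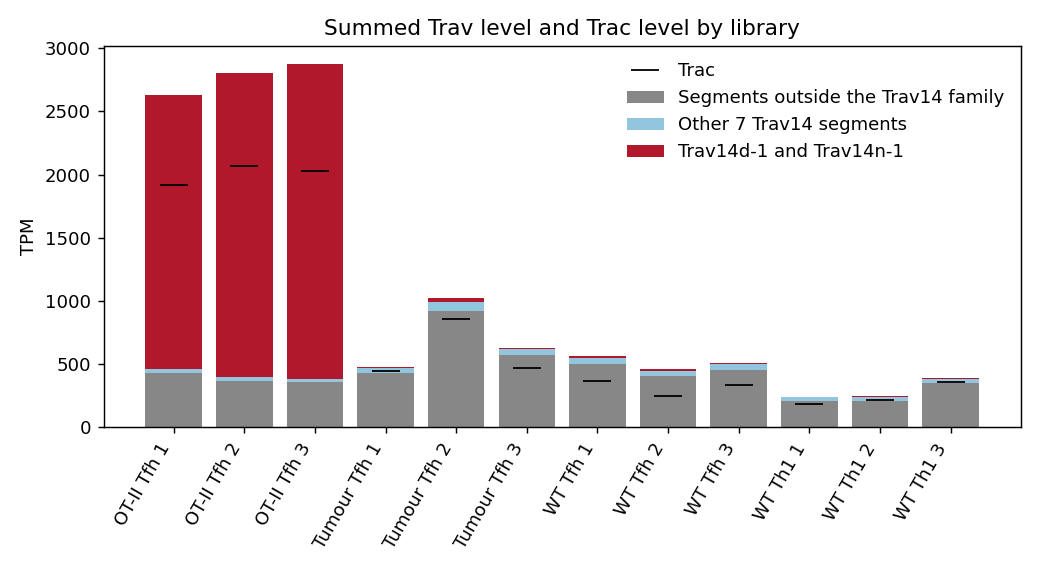
Bars show the summed TPM of Trav segments in each of the 12 libraries, split into Trav14d-1 with Trav14n-1, the other 7 Trav14 segments and all segments outside the family, and black dashes show the TPM of Trac. The 3 OT-II Tfh bars reach 2626 to 2874 TPM, of which 2164 to 2488 TPM are Trav14d-1 and Trav14n-1, and the grey portions of the OT-II and WT Tfh bars are of similar height.

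Of the other 10 genes examined for receptor assembly and signalling (Rag1, Rag2, Dntt, Ptcra, Trbc1, Trbc2, Cd3d, Cd3e, Cd3g and Cd247), 0 of the 9 tested were called between OT-II Tfh and WT Tfh libraries by limma at an adjusted p under 0.05, and only Dntt and Trbc2 had an unadjusted p under 0.05. Trac was the only gene of that list of 11 that rose, by 2.68 ± 0.32 (SE) on the log2(TPM + 1) scale (n = 3 per group, limma, adjusted p = 0.000956), and Rag1 did not pass the filter on low values. Dntt narrowly missed the threshold, averaging 4.96 TPM in OT-II Tfh and 1.37 TPM in WT Tfh libraries, without overlap (log2 difference 1.33, 95% interval 0.62 to 2.04, limma adjusted p = 0.0547). Trbc2, a beta chain constant gene, averaged 480 TPM in OT-II Tfh and 289 TPM in WT Tfh libraries (log2 difference 0.73, 95% interval 0.18 to 1.29, limma adjusted p = 0.197).

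In OT-II Tfh libraries a single Trav14 sequence took most of the alpha variable TPM. Trav14d-1 and Trav14n-1 together made up 82.4%, 85.8% and 86.6% of it in OT-II Tfh libraries, against 2.24%, 2.96% and 2.27% in WT Tfh libraries. Each of the pair stood at 1082, 1202 and 1244 TPM in OT-II Tfh and at 6.30, 6.85 and 5.79 TPM in WT Tfh libraries, a rise of 7.33 ± 0.37 (SE) on the log2(TPM + 1) scale (limma, adjusted p = 3.96e-07). The other 7 members of the family did not share in it, as they summed to 31.1, 35.4 and 26.7 TPM in OT-II Tfh and to 50.9, 41.9 and 44.0 TPM in WT Tfh libraries, and these ranges do not overlap. Trav14n-3 fell among them, with 2.85, 1.83 and 1.53 TPM in OT-II Tfh and 6.95, 6.79 and 7.55 TPM in WT Tfh libraries (log2 difference -1.42, limma adjusted p = 0.0231, called after 1 of the 6 removals of a single library). Apart from the pair, no Trav14 segment took more than 0.348% of the OT-II Trav TPM.

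The level of segments outside the Trav14 family was close in both cultures, at 431, 364 and 359 TPM summed in OT-II Tfh and 498, 407 and 455 TPM in WT Tfh libraries, ranges that overlap. By level, 6 of the 116 segments tested were called between OT-II Tfh and WT Tfh libraries, when 2.38% of all genes were called, 0.987% higher and 1.39% lower. The pair of Trav14 segments rose, and Trav14n-3, Trav7-4, Trav7n-6 and Trav6-1 fell. Trav7-4 had 15.9, 8.63 and 7.64 TPM in OT-II Tfh and 40.1, 25.1 and 28.2 TPM in WT Tfh libraries. Trav6-1 was listed at 0 in the 3 OT-II Tfh libraries and at 2.16, 3.42 and 2.86 TPM in WT Tfh libraries. Without OT-II replicate 3, or without WT Tfh replicate 2 or 3, the 4 that fell were no longer called.

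**Figure D2:**
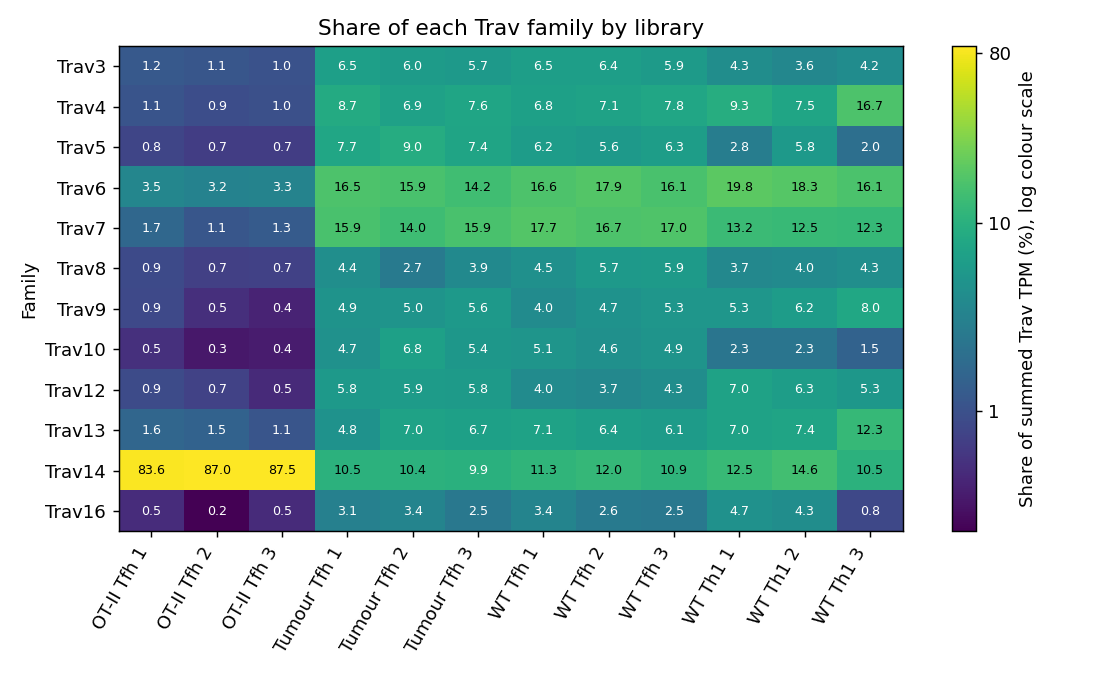
Each cell gives the share of summed Trav TPM (%) that a family took in a library, for the 12 families with a mean share of at least 3% in some group, with colour on a log scale. Trav14 stands at 83.6% to 87.5% in the 3 OT-II Tfh libraries and at 9.95% to 14.6% in the other 9, where Trav6 and Trav7 have the highest or next highest shares in most libraries.

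As a share of all Trav TPM, nearly every other segment was lower in OT-II Tfh than in WT Tfh libraries, as a sum of fixed size requires. The fit on shares divided every gene's TPM in a library by that library's summed Trav TPM, taken relative to its geometric mean over libraries. The median log2 difference over all 25381 genes tested therefore moved to -1.54 between OT-II Tfh and WT Tfh, against 0.05 on deposited TPM. In the fit on shares 84 of 119 segments were called, 2 higher and 82 lower, when 75.6% of all genes were called, 0.213% higher and 75.3% lower. The count of lower segments is thus near the background. Among families, 18 of 21 tested were called with a background of 75.7%, 0.21% higher and 75.4% lower. With copies summed, 46 of 53 sets were called with a background of 75.7%. The Trav14 family rose by 2.90 ± 0.20 (limma, adjusted p = 3.51e-06), with 83.6%, 87.0% and 87.5% in OT-II Tfh and 11.3%, 12.0% and 10.9% in WT Tfh libraries. Trav7 had the most negative difference of the 17 families called lower by share, at -3.55 ± 0.20 (SE). Its mean share was 1.36% in OT-II Tfh and 17.1% in WT Tfh libraries. Trav10 followed with -3.21 ± 0.24 (SE). Trav15 was lower by share only, with a difference of -1.09 ± 0.23 (SE), less negative than the median of -1.54 over all genes. By level the Trav15 family was higher in OT-II Tfh libraries, at 41.6, 30.8 and 32.6 TPM. WT Tfh libraries had 15.2, 15.2 and 13.04 TPM, and families were not tested by level.

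When the Trav14 family was set aside, an OT-II Tfh and a WT Tfh library placed 70.9% to 73.8% of the remaining Trav TPM in the same copy sets. WT Tfh libraries shared 89.3% to 89.8% among themselves on that measure, and OT-II Tfh libraries 81.8% to 84.9%. The comparison rescaled each library by its Trav TPM outside the family. Of 106 segments tested, 3 were called, when 1.72% of all genes were called, 1.31% higher and 0.407% lower, and 23 had an unadjusted p under 0.05. Trav7-4 fell to 3.70%, 2.37% and 2.13% of the remaining Trav TPM in OT-II Tfh libraries, against 8.04%, 6.17% and 6.19% in WT Tfh libraries (log2 difference -1.27 ± 0.25, limma adjusted p = 0.0234). Trav7n-6 fell too, with at most 0.0251% in OT-II Tfh libraries and 1.13% to 1.69% in WT Tfh libraries (log2 difference -2.56 ± 0.52, limma adjusted p = 0.0293). It was as low in WT Th1 libraries, at most 0.0199%, and varied in tumour Tfh libraries, at 1.39%, 0.101% and 0.0106%. Its copy set Trav7-6 was not called (log2 difference -1.29, limma adjusted p = 0.311), so the call depends on the split between copies. Trav15-2-dv6-2 rose, with 2.13%, 1.30% and 1.80% in OT-II Tfh and 0.313%, 0.389% and 0.140% in WT Tfh libraries (log2 difference 1.92 ± 0.43, limma adjusted p = 0.0447). Leaving out any single library of either group left 0 or 1 called segment. With the copies summed, 2 of 50 sets were called, when 1.71% of all genes were called and 0.404% were called lower, namely Trav7-2 (-1.95 ± 0.28, limma adjusted p = 0.00368) and Trav7-4 (-1.06 ± 0.23, limma adjusted p = 0.0370), both lower in OT-II Tfh libraries.

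Segments that also serve delta chains took, as a sum, a larger part of what remained in OT-II Tfh libraries. The 9 dv-named segments outside Trav14 made up 20.3%, 22.5% and 26.2% of the remaining Trav TPM in OT-II Tfh libraries, against 12.3%, 11.7% and 9.64% in WT Tfh libraries. By level they summed to 87.3, 81.9 and 94.2 TPM in OT-II Tfh and 61.3, 47.5 and 43.8 TPM in WT Tfh libraries, with no overlap. One by one, 7 of the 9 had a positive difference outside Trav14 and 2 a negative one. Only Trav15-2-dv6-2 was called, when 1.31% of all genes were called higher. Some of the 9 had every OT-II Tfh share above every WT Tfh share. Among them, Trav15d-2-dv6d-2 has the same values as Trav15n-2, which has no dv name. Other segments without dv also lay wholly above, such as Trav3-3, Trav7-5, Trav6d-7 and Trav13-2, and some wholly below, such as Trav7-4. Their number over all segments outside Trav14 was not counted, so such separation cannot be read as particular to dv-named segments. Trav6-7-dv9 was the most abundant of the 9, at 39.0, 44.7 and 49.8 TPM in OT-II Tfh and 28.3, 22.1 and 18.3 TPM in WT Tfh libraries. It did not pass the test outside Trav14 (log2 difference 1.17, 95% interval 0.51 to 1.84, limma adjusted p = 0.0762). Trav15-1-dv6-1 also missed the threshold (log2 difference 1.58, 95% interval 0.78 to 2.39, limma adjusted p = 0.0516). The Trav15 family, whose copies have dv6 names in part, took 9.66%, 8.47% and 9.09% of the remaining Trav TPM in OT-II Tfh and 3.05%, 3.73% and 2.87% in WT Tfh libraries. Trav4-4-dv10 took 3.11%, 0.778% and 3.37% of it in OT-II Tfh and 2.72%, 2.87% and 2.46% in WT Tfh libraries (log2 difference -0.33, limma adjusted p = 0.743), and Trav16d-dv11 was listed at 0 in OT-II replicates 1 and 3 (-1.01, limma adjusted p = 0.459).

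Constant gene RNA of the gamma delta receptor moved with those segments. Trdc, the delta constant gene, had 10.6, 12.6 and 12.5 TPM in OT-II Tfh and 1.42, 1.70 and 1.72 TPM in WT Tfh libraries, a rise of 2.30 ± 0.24 on the log2(TPM + 1) scale (limma, adjusted p = 0.000275). The gamma constant genes Tcrg-C1, Tcrg-C2 and Tcrg-C4 rose by 1.76, 3.004 and 2.27 on that scale (limma adjusted p = 0.0311, 0.000275 and 0.00278). Sox13, a transcription factor of gamma delta T cells and the only marker on that list outside the receptor, had 1.28, 1.76 and 0.858 TPM in OT-II Tfh and 0.666, 0.739 and 1.32 TPM in WT Tfh libraries, which overlap (log2 difference 0.27, limma adjusted p = 0.837). The 5 markers summed to 51.3 to 70.5 TPM in OT-II Tfh and 6.34 to 10.2 TPM in WT Tfh libraries, most of it from the constant genes, and none was at 0 in all libraries. The CD8 T cell markers Cd8a and Cd8b1 also separated as a sum, at 21.5 to 27.6 TPM in OT-II Tfh and 13.97 to 17.02 TPM in WT Tfh libraries. Cd8b1 had 21.7, 18.4 and 19.4 TPM in OT-II Tfh and 10.2, 8.405 and 9.80 TPM in WT Tfh libraries (log2 difference 0.99, 95% interval 0.38 to 1.61, limma adjusted p = 0.102). Cd8a, in contrast, averaged 3.83 TPM in OT-II Tfh and 6.18 TPM in WT Tfh libraries, with overlap (log2 difference -0.64, limma adjusted p = 0.355). The part of gamma delta and CD8 T cell transcripts in the segment shares was not tested.

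The position of the remaining segments in the locus also differed. Ordered along the chromosome, the 43 segments nearest the Traj cluster (chr14:53454296-53977678) include 3 of Trav14. The other 40 took 55.2%, 56.4% and 61.9% of the Trav TPM outside Trav14 in OT-II Tfh libraries, against 50.4%, 43.8% and 44.0% in WT Tfh libraries. In tumour Tfh libraries they took 45.4% to 50.8% and in WT Th1 libraries 45.8% to 50.6%, so every OT-II library lay above every other library. Trav6-7-dv9 and the Trav15 copies without a letter lie in this stretch, so this difference is not separate from that of the dv-named segments. Trav6-7-dv9 alone took 9.05%, 12.3% and 13.9% in OT-II Tfh libraries, against 5.68%, 5.44% and 4.01% in WT Tfh libraries. Whether position differs without these segments was not tested.

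The joining segments were also more concentrated in the OT-II libraries, though less so than the variable segments. Traj31 held 24.0%, 26.0% and 28.6% of the summed TPM of the 60 Traj segments in OT-II Tfh libraries and 3.16%, 2.23% and 1.71% in WT Tfh libraries. Its level was 2052, 2337 and 2537 TPM in OT-II Tfh and 195, 108 and 105 TPM in WT Tfh libraries, without overlap. It did not pass the fit over all 12 libraries (log2 difference 4.13, 95% interval 1.69 to 6.58, limma adjusted p = 0.0848), in which a WT Th1 library listed it at 0. Outside OT-II, Traj31 was at most 505 TPM, and no other Traj segment was the highest of its library in any OT-II library.

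Evenness of use separated the OT-II libraries from the other 9. It was measured by the effective number of copy sets, which is the number of equally used sets that would give the same Shannon entropy. It was 2.55 ± 0.34 in OT-II Tfh, 36.2 ± 1.46 in tumour Tfh, 35.4 ± 1.01 in WT Tfh and 33.4 ± 3.89 in WT Th1 libraries (SD, n = 3 each). Over segments it was 5.93, 4.95 and 4.65 in OT-II Tfh, 78.2, 69.6 and 75.9 in tumour Tfh, 74.6, 78.7 and 80.2 in WT Tfh and 60.3, 77.4 and 60.1 in WT Th1 libraries, so the tumour, WT Tfh and WT Th1 ranges overlapped. Without the Trav14 family the copy set value was 31.9, 28.8 and 25.9 in OT-II Tfh and 31.4, 33.0 and 33.5 in WT Tfh libraries. The number of segments listed at 0 varied most in WT Th1 cells, with 53, 22 and 43, against 10, 10 and 13 in WT Tfh cells.

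**Figure D3:**
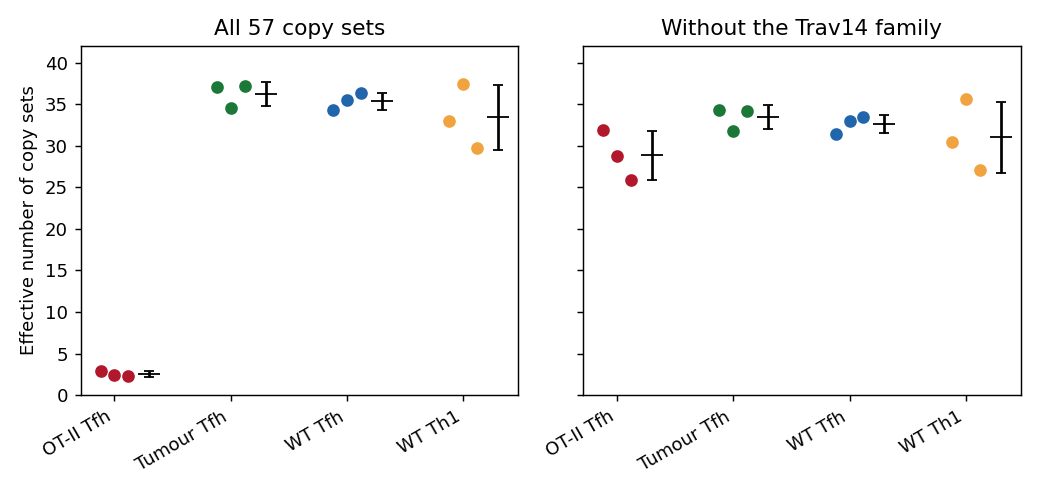
Points give the effective number of copy sets in each library, and bars the mean with SD of 3 libraries, for all 57 copy sets (left) and without the Trav14 family (right). All sets together give 2.30 to 2.93 in OT-II Tfh libraries and 29.7 to 37.5 in the other 9, whereas without Trav14 the OT-II points lie between 25.9 and 31.9.

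The comparison of tumour Tfh cells with WT Tfh culture addresses whether cells taken from a tumour used other alpha segments than naive cells put into culture. No family passed the test between them, and both groups used a broad set of segments, with the same 5 segments at the head in different orders. In tumour Tfh libraries the highest mean shares were those of Trav5-4 (4.57%), Trav7-4 (4.18%), Trav10 (3.31%), Trav7-2 (3.08%) and Trav6-7-dv9 (2.90%). In WT Tfh libraries the same 5 segments led, with Trav7-4 at 6.03%, Trav6-7-dv9 at 4.47%, Trav7-2 at 3.60%, Trav10 at 2.88% and Trav5-4 at 2.50%. The tumour mean of Trav7-2 includes a 0 in replicate 2, where its copy Trav7d-2 took 5.29%. As a copy set the pair had a mean share of 4.86% in tumour Tfh and 3.62% in WT Tfh libraries, without overlap. That difference was not called (log2 difference 0.41, limma adjusted p = 0.522). The usage overlap, the percentage of Trav TPM that 2 libraries place in the same copy sets, was 81.5% to 86.3% between a tumour Tfh and a WT Tfh library, 83.7% to 86.9% between tumour Tfh libraries and 89.3% to 90.0% between WT Tfh libraries. A tumour library thus overlapped a WT Tfh library about as much as another tumour library.

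Between tumour Tfh and WT Tfh libraries, 1 of 119 segments was called, when 3.88% of all genes were called. It was the pseudogene Trav5n-3, named after its value was seen, which was listed at 0 in the 3 tumour libraries and took 0.410%, 0.135% and 0.0983% of Trav TPM in WT Tfh libraries (limma adjusted p = 0.0446). Its longest transcript matched that of Trav5d-3 at all of the 238 bases compared, and with both summed as a copy set the difference did not pass (limma adjusted p = 0.0864). With copy sets, limma called 0 of 53 tested, when 3.91% of all genes were called, and 6 had an unadjusted p under 0.05. By level limma called 0 of 116 segments, when 2.1% of all genes were called. Without adjustment 12 segments had a limma p under 0.05, but the share of all genes under that looser threshold was not counted. Leaving out tumour replicate 1 gave 3 called by share, and leaving out tumour replicate 2 or 3 or WT Tfh replicate 2 gave 0. By level, leaving out tumour replicate 1 gave 2 and leaving out WT Tfh replicate 1 gave 1.

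Limma called 0 of 21 families, when 3.92% of all genes were called. Without adjustment 2 families had a limma p under 0.05, and the matching share of all genes was not counted. Trav8 took 4.35%, 2.66% and 3.86% in tumour Tfh and 4.50%, 5.69% and 5.92% in WT Tfh libraries (log2 difference -0.57, 95% interval -1.06 to -0.07, limma adjusted p = 0.211). Trav12 took 5.77%, 5.94% and 5.82% in tumour Tfh and 4.02%, 3.70% and 4.27% in WT Tfh libraries (log2 difference 0.54, 95% interval 0.04 to 1.03, limma adjusted p = 0.245). For the most used families the intervals were narrower, at -0.52 to 0.28 for Trav6, -0.59 to 0.25 for Trav7 and -0.57 to 0.28 for Trav14. Among copy sets that led in both groups, Trav6-7 had a mean share of 5.51% in tumour Tfh and 8.21% in WT Tfh libraries (log2 difference -0.58, 95% interval -1.05 to -0.10, limma adjusted p = 0.183), and Trav7-4 had 5.36% in tumour Tfh and 8.32% in WT Tfh libraries (log2 difference -0.65, 95% interval -1.16 to -0.14, limma adjusted p = 0.163). No tumour library contained a segment above 5.82% of its Trav TPM. The part of the macrophage transcripts in these values was not tested.

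**Figure D4:**
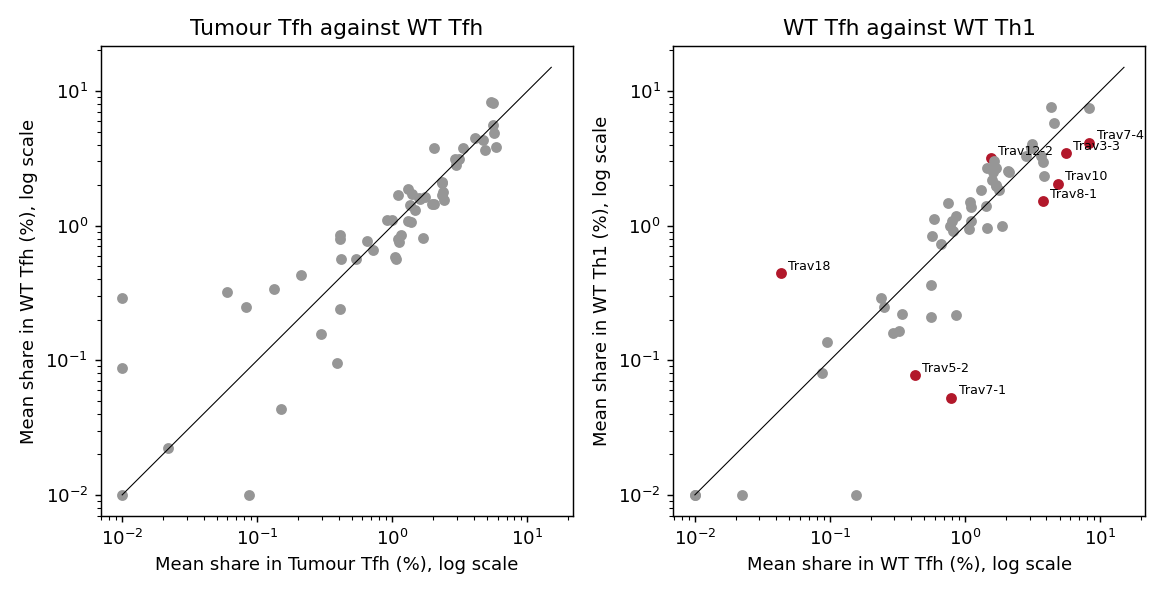
Each point is a copy set, placed by its mean share of summed Trav TPM in tumour Tfh and WT Tfh libraries (left) and in WT Tfh and WT Th1 libraries (right), on log axes, with means below 0.01% drawn at 0.01% and the line of equal shares. Red points passed the limma test at an adjusted p under 0.05: 0 on the left and 8 on the right, where Trav7-1, Trav5-2, Trav8-1, Trav10, Trav7-4 and Trav3-3 lie on the WT Tfh side and Trav12-2 and Trav18 on the WT Th1 side.

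WT Tfh and WT Th1 cultures started from the same kind of naive wild-type cells, so this comparison shows how far the measured use of segments differs between polyclonal cultures under different cytokines. By share, 14 of 119 segments were called, 10 higher and 4 lower in WT Tfh, when 16.4% of all genes were called, 14.2% higher and 2.18% lower. The share of segments called was below the background for all calls and for higher calls and above it for lower calls, differences that were not tested. Without WT Tfh replicate 3 the count was 8, and without WT Th1 replicate 2 it was 22. The scaling to summed Trav TPM left the median log2 difference of all genes at 0.35, against 0.78 on deposited TPM, and that of the segments tested at 0.23. Summed to copy sets, 8 of 53 were called, 6 higher and 2 lower, with a background of 16.5%, 14.3% higher and 2.18% lower.

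Copy set values do not depend on how reads were split between copies. Trav10 took 5.10%, 4.56% and 4.95% in WT Tfh and 2.29%, 2.32% and 1.49% in WT Th1 libraries (log2 difference 1.23 ± 0.24, limma adjusted p = 0.00535). Trav7-4 took 8.98%, 8.08% and 7.88% in WT Tfh and 4.996%, 3.64% and 3.77% in WT Th1 libraries (0.995 ± 0.24, limma adjusted p = 0.0138). Trav8-1 took 3.35%, 4.32% and 3.60% in WT Tfh and 0.773%, 1.79% and 2.00% in WT Th1 libraries (1.32 ± 0.34, limma adjusted p = 0.0204). In none of these did the groups overlap. Trav3-3 was higher as well, with mean shares of 5.59% in WT Tfh and 3.44% in WT Th1 libraries, and so were the rare sets Trav7-1, with 0.792% in WT Tfh and 0.0527% in WT Th1, and Trav5-2. Trav12-2 was lower in WT Tfh libraries, at 1.91%, 1.18% and 1.55%, than in WT Th1 libraries, at 3.19%, 2.97% and 3.34% (-0.995 ± 0.26, limma adjusted p = 0.0221). Trav18 was at or under 0.0685% in WT Tfh and at 0.786%, 0.169% and 0.368% in WT Th1 libraries.

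**Figure D5:**
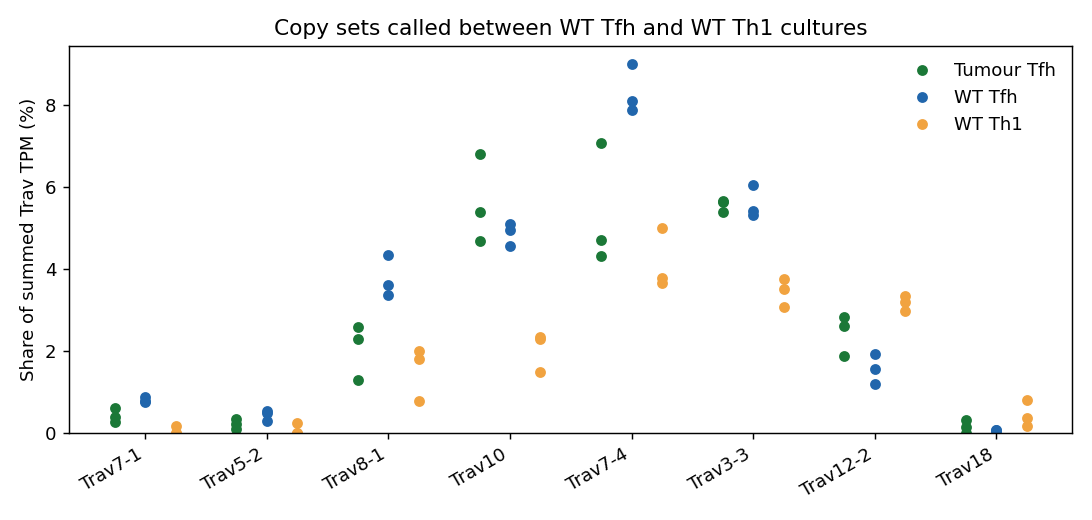
Points show the share of summed Trav TPM (%) of the 8 copy sets called between WT Tfh and WT Th1 libraries, 3 libraries per group, with the tumour Tfh libraries for orientation. The WT Tfh and WT Th1 points do not overlap for any of the 8, and tumour Tfh points for Trav10 lie from 4.68% to 6.80%, near or above WT Tfh.

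Of the 14 segments called, 5 belong to copy sets that were not called, and in the set Trav13-4 the calls went in opposite directions. Trav13n-4 was higher in WT Tfh libraries, with 0.394%, 0.221% and 0.200%, and was listed at 0 in the 3 WT Th1 libraries. Trav13-4-dv7 was lower, with 0.454%, 0.482% and 0.603% in WT Tfh and 1.19%, 1.51% and 0.888% in WT Th1 libraries (log2 difference -1.02, limma adjusted p = 0.0444). The copy set Trav13-4 that holds both did not pass (log2 difference -0.23, limma adjusted p = 0.637). Trav7n-6 had 0.999%, 1.48% and 1.03% in WT Tfh and at most 0.0175% in WT Th1 libraries (log2 difference 3.11, limma adjusted p = 0.00493), but its set with Trav7-6 did not pass (1.49, limma adjusted p = 0.175). Trav14n-3 was lower (-0.97, limma adjusted p = 0.0180), and its set was not called (-0.35, limma adjusted p = 0.268). The longest transcripts of Trav13-4-dv7 and Trav13n-4 differ at 20 of the 238 bases compared, and those of Trav7-6 and Trav7n-6 at 9. Trav14n-3 differs from Trav14-3 at 4 of them, and Trav5n-3, another of the 5, from Trav5d-3 at 0. Whether reads were split between these copies was not tested.

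Families gave 3 calls of 21 between WT Tfh and WT Th1 libraries, 2 higher and 1 lower, with a background of 16.5%, 14.3% higher and 2.18% lower. Trav10 rose as above and Trav3 by 0.63 ± 0.19 (limma, adjusted p = 0.0356), while Trav18 fell by 1.55 on the log2 scale (limma, adjusted p = 0.0378). Trav10 stayed called after each removal of a single library, and Trav3 and Trav18 after 1 removal of 6 each, so that 1 family was called without WT Tfh replicate 2 or 3 or WT Th1 replicate 3. Trav4, the family of Trav4-4-dv10, which had the highest mean share in WT Th1 libraries at 3.73%, took 6.78%, 7.11% and 7.82% in WT Tfh and 9.27%, 7.53% and 16.7% in WT Th1 libraries (log2 difference -0.53, 95% interval -1.10 to 0.03, limma adjusted p = 0.182). The WT Th1 values spread widely and were highest in replicate 3. WT Th1 libraries overlapped each other by 71.5% to 77.9% over copy sets, less than the 89.3% to 90.0% among WT Tfh libraries, and a WT Tfh with a WT Th1 library by 69.7% to 79.7%.

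By level, 23 of 116 segments were higher and 0 lower in WT Tfh than in WT Th1 libraries, when 41.6% of all genes were called, 41.1% higher and 0.511% lower. Median-of-ratios scaling, which removes the shift common to all genes, turned this into 5 higher and 5 lower, and without WT Tfh replicate 1 or 3 the count on deposited TPM was 13 higher and without WT Th1 replicate 1 it was 15. Of the 10 tested genes of receptor assembly and signalling, 5 rose by level in WT Tfh libraries, the CD3 chains Cd3d, Cd3e, Cd3g and Cd247 and the nucleotide-adding enzyme Dntt. Trac did not pass (log2 difference 0.37, 95% interval -0.32 to 1.06, limma adjusted p = 0.345).

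Segments tied to innate-like T cells stayed minor throughout. Trav11, the mouse Vα14 of invariant natural killer T cells, took as a family 0.122%, 0.133% and 0.166% in OT-II Tfh, 1.16%, 0.995% and 1.96% in tumour Tfh, 1.04%, 0.635% and 1.53% in WT Tfh, and 1.43%, 1.07% and 0.335% in WT Th1 libraries. The last 3 groups overlapped. By level the family had 3.20, 3.72 and 4.77 TPM in OT-II Tfh and 5.82, 2.93 and 7.81 TPM in WT Tfh libraries, which overlap. Rescaled outside Trav14, the family as a copy set differed by -0.15 on the log2 scale between OT-II Tfh and WT Tfh (limma adjusted p = 0.893). Its copies Trav11 and Trav11d differ by a single final base, and the reads went to Trav11d in WT Tfh replicate 1 (0.800%) and to Trav11 in WT Tfh replicate 3 (1.25%). Trav1, used by mucosal-associated invariant T cells, took 0.129%, 0.0548% and 0.217% in tumour Tfh and 0.256%, 0.454% and 0.312% in WT Tfh libraries (log2 difference -0.84, 95% interval -2.08 to 0.40, limma adjusted p = 0.538). In WT Th1 libraries it was at 0.664% in replicate 2 and listed at 0 in replicates 1 and 3.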

How the data were processed

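RNA of CD4+ T cells was sequenced as stranded, ribosome-depleted total RNA in read pairs of 75 bases, per the labels' protocols. The authors deposited TPM per gene symbol, made with kallisto on mm10 per the submitters' processing notes; its version and annotation are not given in the sources used here. The files used hold no counts, so depth is unknown.

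Segments, families and copy sets were expressed as shares of summed Trav TPM. limma 3.58.1 (R 4.3.3) was fitted with an intensity trend to log2(value + 1) of all genes with a mean of at least 1 in some group, over all 12 libraries, with Benjamini-Hochberg adjustment over all genes tested and a threshold of 0.05. Intervals are 95%. Values were deposited TPM (level), TPM rescaled by summed Trav TPM (share), or TPM rescaled by summed Trav TPM outside Trav14. Rescaling divided by the library's sum relative to the geometric mean of that sum over the 12 libraries, so values stayed on a TPM scale. Differences on this scale understate changes of low values. The procedure was tested on simulated data. Python 3.11.15, numpy 2.4.6, pandas 2.3.3 and matplotlib 3.10.9 made the tables and figures.

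Segments were named when called, at a mean share of at least 1% in a group compared and without overlap, up to 10 each way, together with Trav14 members, Trav1, the Trav11 family, the 5 highest of each group and families of at least 5%. Members, lists and tests were chosen with earlier results of these data known. No label says that replicates come from separate animals or cultures, so the spread behind each p-value is that of these libraries and may be technical. Alternatives were a pseudocount of 0.1, no filter or one at 5, only the groups compared, a replicate block, median-of-ratios scaling, TPM times transcript length, and each library left out.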

Additional observations from a re-analysis of the deposited data

How the results depend on the processing

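Counts of called segments are for 3 libraries per group, and TPM without counts gives no limit of detection. For OT-II Tfh against WT Tfh, copy sets instead of segments gave 46 calls by share, and the fit of only both groups gave 16 segments by level, 5 of them higher. Outside Trav14, a pseudocount of 0.1 or no filter gave 1 call each, and leaving out a library 0 to 1. Leaving out a library gave 2 to 7 calls by level.

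For tumour Tfh against WT Tfh, the fit of only both groups and copy sets gave 0 calls by share, leaving out a library 0 to 3, and copy sets with a library left out 0. By level leaving out a library gave 0 to 2. With a library left out, the uncalled log2 family differences of Trav13 ranged from -0.19 to 0.076 and of Trav3 from -0.088 to 0.0070, changing sign without tumour replicate 1 for Trav13 and without tumour replicate 3 for Trav3.

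For WT Tfh against WT Th1, the fit of only both groups gave 9 segments and 1 family, and copy sets 8. Leaving out a library gave 8 to 22 segments by share, 13 to 25 by level and 1 to 4 families. Median-of-ratios scaling gave 10 segments by level. The cause was not tested.

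Effective numbers over families were 2.13 in OT-II Tfh, 13.4 in tumour Tfh, 12.6 in WT Tfh and 12.2 in WT Th1 libraries, and over segments with a share of at least 0.1% 4.30 in OT-II Tfh, as both count fewer units. With TPM times transcript length the Trav14 share was 11.03% in tumour Tfh and 12.2% in WT Tfh libraries. The other alternatives moved no effective number or Trav14 share by as much as its SD. For the named differences, 626 values kept direction and side of the threshold, 78 lost and 1 gained the call.

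Deviations of same-numbered libraries from their group means correlated between -0.39 and 0.11. With 3 libraries per group, that check cannot show whether the replicate numbers pair the libraries. With the replicate number as a block, calls by share were 79 for OT-II Tfh against WT Tfh, 0 for tumour Tfh against WT Tfh and 13 for WT Tfh against WT Th1.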
